A study of Mus musculus with 12 samples.

Results

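The genes described here are the replication-dependent histone genes of the mouse, taken as every entry of the count table whose symbol begins with HIST1H, HIST2H, HIST3H or HIST4H and that had at least 10 counts summed over the 12 libraries. The rule found 70 genes among 21497 entries. They comprise 6 H1 genes, 20 H2A genes, 19 H2B genes, 12 H3 genes and 13 H4 genes, of which 56 carry a Hist1 name, 10 a Hist2 name, 3 a Hist3 name and 1 a Hist4 name. RNA was sequenced from 2 populations sorted from the bone marrow of C57BL/6 mice, the donors being 0.35 years old. LSK usually stands for cells without lineage markers that carry both Kit and Sca-1, where the stem cells are found, and GMP for granulocyte-macrophage progenitors. Each population was taken from wild-type mice (WT) and from mice of the genotype Tet2-/-Flt3ITD (T2F3), in which the DNA dioxygenase Tet2 is lost and the receptor tyrosine kinase Flt3 carries an internal tandem duplication, with 3 libraries in each of the 4 groups. Every T2F3 library carries both alleles, so the effect of either alone cannot be told apart, and the labels do not state how Tet2 was deleted, in which cells, or whether each replicate came from its own mouse. The p-values therefore measure the spread between these libraries, part of which may be technical.

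Core histones H2A, H2B, H3 and H4 form the octamer around which DNA is wrapped, and the linker histone H1 binds the DNA where it enters and leaves that particle. The replication-dependent genes lie in clusters, have no introns, and are transcribed mainly in S phase, when new chromatin must be assembled behind the replication fork. Their mRNAs end in a short stem-loop in place of a poly(A) tail. That stem-loop is bound by SLBP, and the U7 small nuclear ribonucleoprotein cuts the RNA just after it. Since the libraries were made by depletion of ribosomal RNA and not by selection of poly(A), transcripts without a tail were kept.

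The stem-loop was looked for after the stop codon because it is the feature that marks these mRNAs. It was found in 45 of the 65 members that have a coding sequence in the GENCODE vM21 annotation, beginning 21 to 58 bases after the stop codon. Of the 20 without a match, 14 have fewer than 16 annotated bases after the stop codon. Hist1h1a and Hist1h1b are among the 20, with 48 and 0 annotated bases after the stop codon, so that none could be found for Hist1h1b. The 3 most frequent forms are shown 5′ to 3′ with the loop in capitals. The form listed first was shared by 25 members of every class but H4, the next by 7 H4 genes and the last by 6 members.
Hist1h2ab, Hist3h2ba and 23 others: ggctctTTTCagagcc
Hist1h4d and 6 other H4 genes: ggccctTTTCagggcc
Hist1h3e and 5 others: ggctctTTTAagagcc

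Near-identical coding sequences limit what a single histone gene can show. Of the 65 coding sequences, 51 shared over 50% of their 50-base windows with a transcript of another gene. The median share was 10.9% for H1, 87.9% for H2A, 80.4% for H2B, 81.8% for H3 and 70.3% for H4. Hist1h1a, Hist1h1b, Hist1h1t, Hist2h2be and Hist4h4 shared no window with another gene, and pairwise identity among H1 coding sequences was 62.5 to 83.9%. How the deposited counting treated reads that fit several copies is not given by the sources at hand. A change in a single H2A, H2B, H3 or H4 gene may belong to its near copies, and these genes are read below as classes first. Hist1h2aj, Hist1h2al and Hist3h2bb-ps are annotated as pseudogenes, and the identifiers of Hist2h2bb and Hist2h3c1 now carry other names (Gm42743 and Gm20634).

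Libraries held 13316474 to 23536258 counts. Replicate 1 stood apart in all 4 groups, with counts in 71.1 to 80.8% of the table's entries against 83.7 to 89.8% in the other libraries, and small noncoding RNA genes took 26.2 to 32.2% of its counts against 9.18 to 25.9%. The sorting protocol in the labels describes LSK as Sca-1-negative. Ly6a, which encodes Sca-1, lay between 11.3 and 46.6 CPM (a gene's count scaled to the library's size after TMM normalisation) in LSK and between 1.52 and 6.46 CPM in GMP, and Mpo, the myeloperoxidase of the granulocyte line, lay between 1478 and 3157 CPM in LSK and between 6712 and 35217 CPM in GMP.

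Together the 70 genes held 0.866 to 1.13% of a library's counts in WT LSK, with a mean of 0.963 ± 0.146% (SD, n = 3), and 1.02 to 1.54% in T2F3 LSK. In GMP the range was 0.794 to 1.88% for WT (mean 1.41 ± 0.557%) and 0.963 to 1.37% for T2F3 (mean 1.19 ± 0.207%). All 4 groups overlapped, and the range within WT GMP was wider than any difference between group means. Per kilobase of coding sequence, and averaged over the 12 libraries, the highest levels belonged to H4 and H3 genes. The division leaves out annotated bases after the stop codon, 822 in Hist1h4d, 48 in Hist1h1a and 0 in Hist1h2ak. The ranking between genes is therefore rough. Hist1h4d was at 3130 CPM per kb, Hist1h4c at 1744, Hist2h4 at 1676, Hist1h3i at 1593 and Hist1h3e at 1439 CPM per kb. The highest H2B gene was Hist1h2bh at 1141 CPM per kb, the highest H1 gene Hist1h1a at 853, and the highest H2A gene Hist1h2ak at 702 CPM per kb. The lowest was Hist1h1t, the linker histone of the testis, at 2.48 CPM per kb, and the next were Hist1h2aa at 5.98, Hist2h2aa1 at 7.22 and Hist1h2ba at 9.46 CPM per kb. All 70 passed the filter on low counts.

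Replicates differed more in these genes than in the median gene, least so in WT LSK. In T2F3 LSK the highest library exceeded the lowest by a median of 2.53-fold over the histone genes, against 1.66-fold over all genes tested. In WT GMP the values were 2.38-fold and 1.76-fold, in T2F3 GMP 2.19-fold and 1.51-fold, and in WT LSK 1.83-fold and 1.79-fold. The genes moved together between replicates. In T2F3 LSK 63 of the 70 were highest in replicate 1, in T2F3 GMP 50 were highest in replicate 1, and in WT GMP 52 were lowest in replicate 3. Hist1h3i showed the widest range in WT GMP, at 1517, 1407 and 121 CPM in replicates 1, 2 and 3, and was at 826, 370.3 and 130.0 CPM in WT LSK. The small noncoding RNA share was 32.2, 13.4 and 9.77% in T2F3 LSK replicates 1, 2 and 3 and 28.7, 9.18 and 21.7% in those of WT GMP. Its part in the histone levels was not tested.

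**Figure D1:**
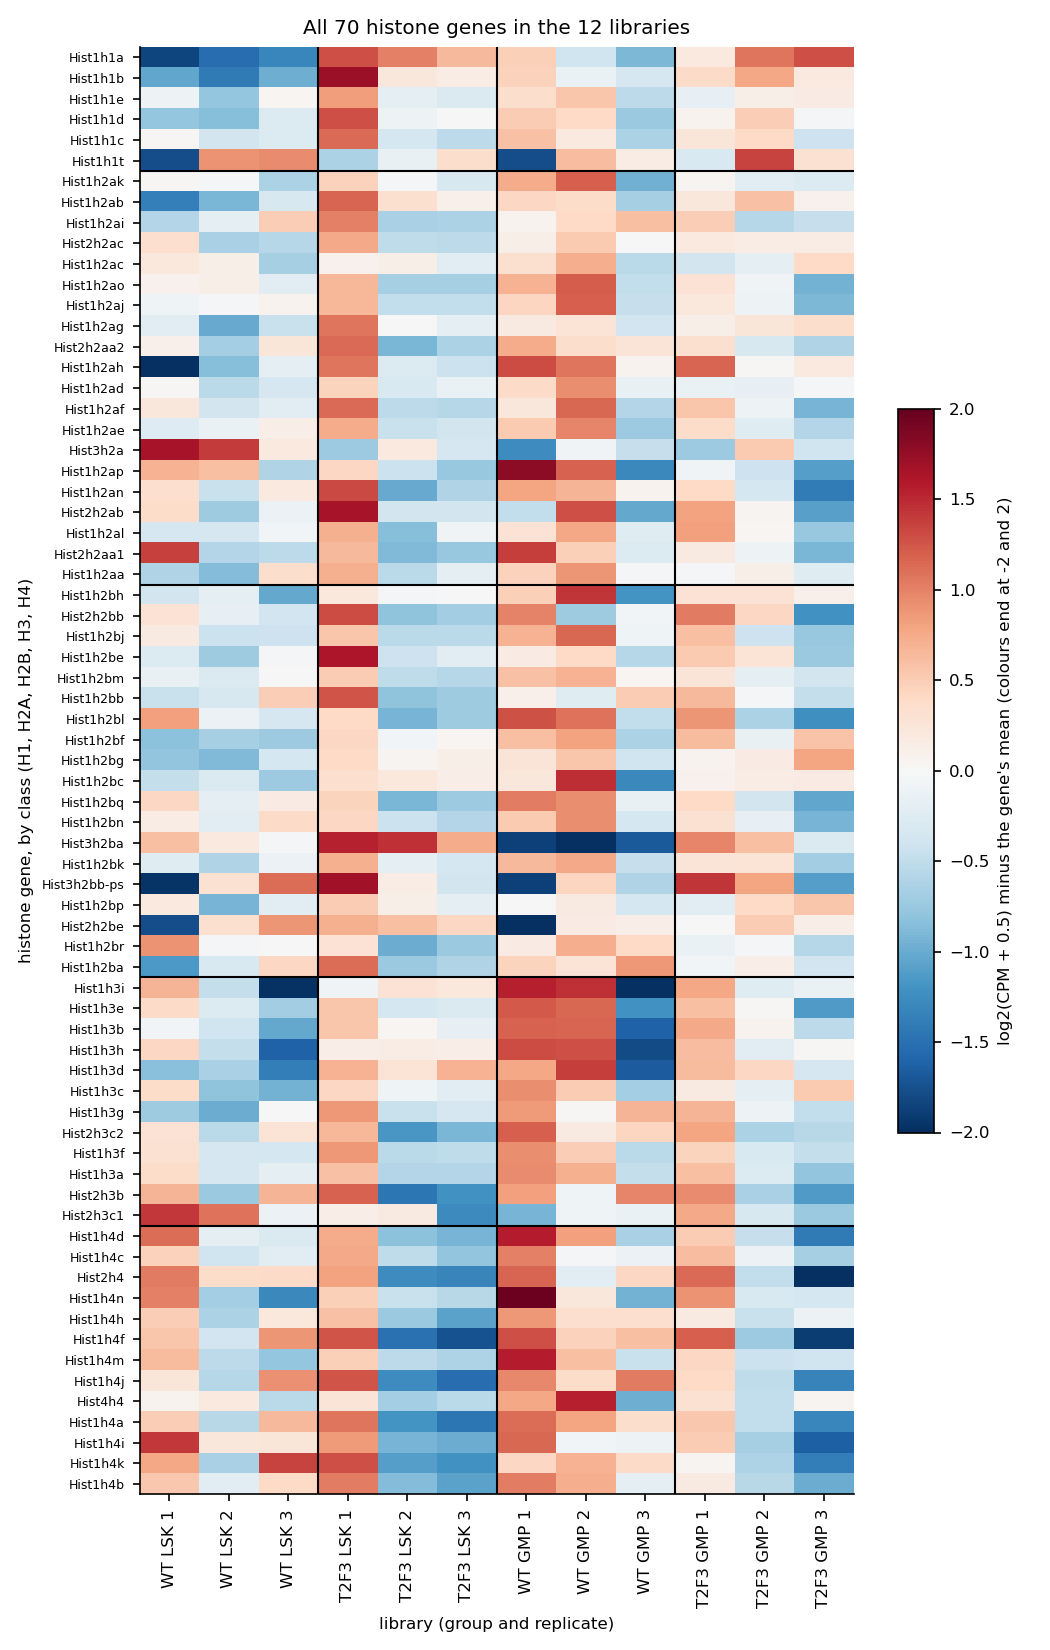
Heat map of the 70 histone genes (rows, by class and then by mean level) in the 12 libraries (columns), as log2(CPM + 0.5) minus the gene's mean over all libraries. Most rows are red in replicate 1 of T2F3 LSK, where 63 of 70 genes were highest, and blue in replicate 3 of WT GMP, where 52 were lowest. Hist1h1a, Hist1h1b and Hist3h2ba are higher in every T2F3 LSK library than in any WT LSK library. Within T2F3 LSK they too are highest in replicate 1.

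Setting T2F3 against WT within LSK asks how histone RNA differs with the combined genotype in the population so labelled. Summed RNA of the replication-dependent linker histone genes was higher in T2F3 LSK. The summed level of the 6 H1 genes was 973, 786 and 1096 CPM in WT and 3868, 1968 and 1741 CPM in T2F3, so that all 3 T2F3 libraries lay above all 3 WT libraries. The difference of the means of log2 CPM was 1.33 ± 0.38 (SE, n = 3 per group). It was 0.97 without replicate 1 of T2F3 LSK, and 0.92 when Hist1h1a, the most abundant H1 gene, was left out. No other class sum separated the genotypes. The differences were 0.26 ± 0.35 for H2A, 0.28 ± 0.38 for H2B, 0.44 ± 0.38 for H3 and -0.53 ± 0.64 for H4. A sum over chosen genes was given no p-value. The linker genes H1fx and H1f0, of the replication-independent histones, are not in the H1 sum. Their log2 differences were negative in all 23 alternative fits, from -1.81 to -0.94 and from -0.84 to -0.04. H1fx passed in 1 of these fits and H1f0 in 0.

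**Figure D2:**
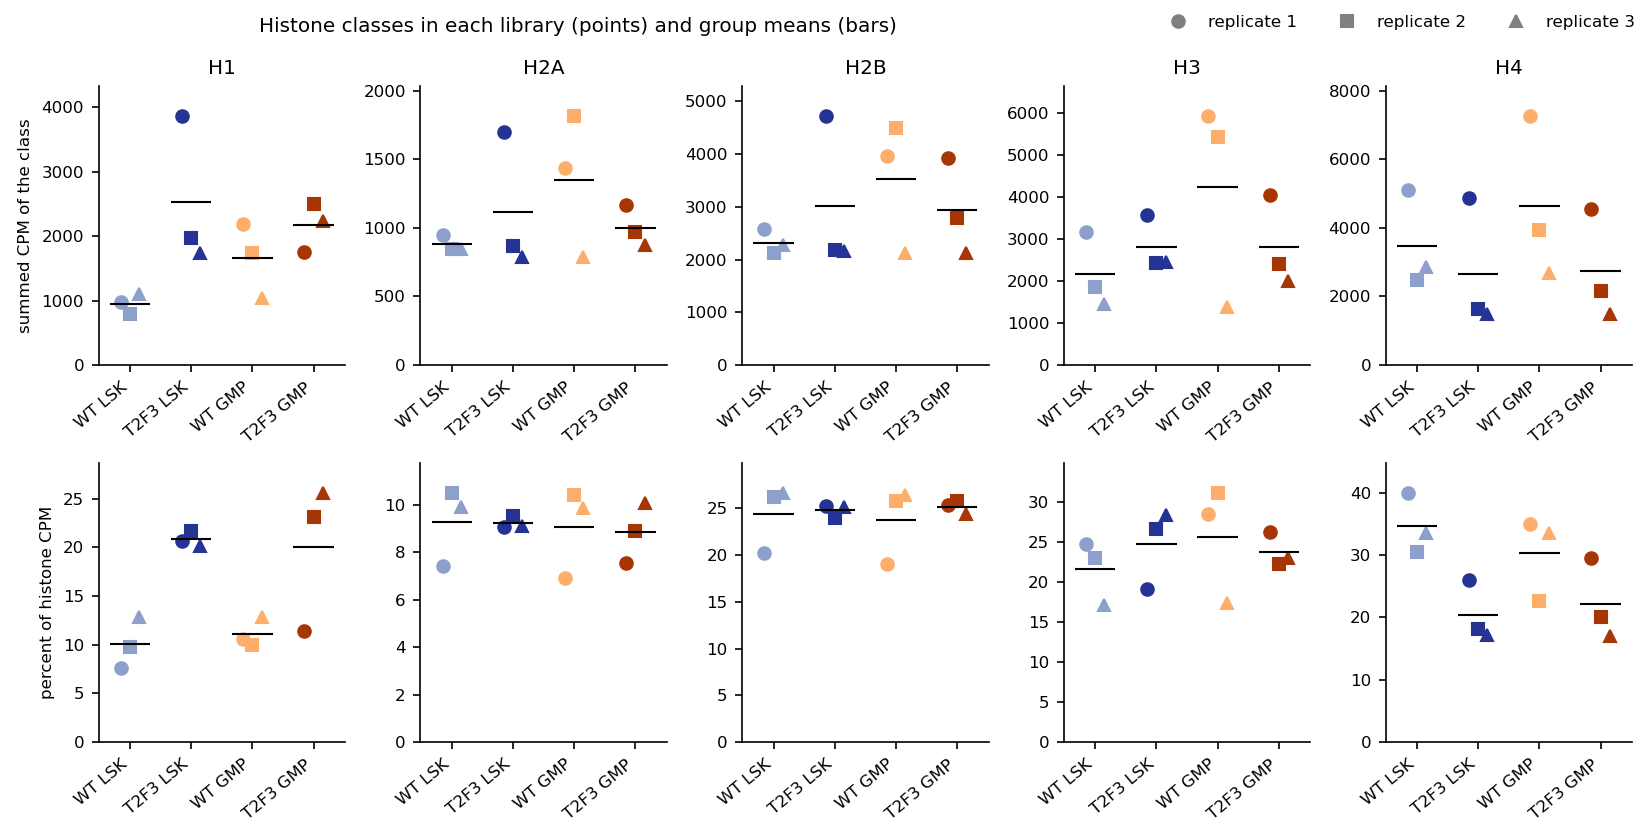
Summed CPM of each histone class (upper row) and the class as a percent of all histone CPM (lower row) in each library, with bars at group means and marker shapes for replicates. In LSK the H1 sum and the H1 percent of all 3 T2F3 libraries lie above all 3 WT libraries, and the H4 percent of all 3 lies below.

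The make-up of histone RNA in LSK also differed between the genotypes. H1 took 7.63, 9.73 and 12.9% of histone CPM in WT LSK and 20.6, 21.7 and 20.2% in T2F3 LSK. H4 took 34.7 ± 4.83% in WT, with a lowest library at 30.5%, and 20.4 ± 4.83% in T2F3 (SD, n = 3), with a highest library at 26.0%, so again the genotypes did not overlap. H2A was at 7.42 to 10.5% in WT and 9.06 to 9.52% in T2F3, and H3 at 17.1 to 24.8% and 19.1 to 28.4%. These shares overlapped, as did those of H2B, with means of 24.4 ± 3.63% and 24.8 ± 0.667%. As shares of 1 whole, a higher share of H1 lowers the others by construction. Bulk RNA cannot tell fewer cells that transcribe a histone gene from less of its RNA per cell.

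The members that passed the test in LSK were 3 of 70, all higher in T2F3, against 5.2% of all genes tested called in either direction, 2.76% called higher and 2.44% lower. At an unadjusted p under 0.05 there were 10 members, against 21.5% of all genes. The share of members called was thus near the background. The 3 were Hist1h1a, Hist1h1b and Hist1h2ab. The promoters of these genes are shown because their RNAs rose together, from 250 bases before to 50 bases after the start of the gene, 5′ to 3′ along the gene. The sequences are from RefSeq, build GRCm38.p6. The promoter of Hist1h1a is at chr13:23763418-23763717, plus strand, that of Hist1h1b at chr13:21780576-21780875, minus strand, and that of Hist1h2ab at chr13:23750838-23751137, plus strand. Capitals mark exact matches, on either strand, to the letters CCAAT of the CCAAT box. They likewise mark the TATA box, searched as TATAAA. The element named H1 box was searched as AAACACA. The octamer motif, not to be confused with the histone octamer, was searched as ATTTGCAT. None of these matches overlaps another in the promoters shown.
Hist1h1a: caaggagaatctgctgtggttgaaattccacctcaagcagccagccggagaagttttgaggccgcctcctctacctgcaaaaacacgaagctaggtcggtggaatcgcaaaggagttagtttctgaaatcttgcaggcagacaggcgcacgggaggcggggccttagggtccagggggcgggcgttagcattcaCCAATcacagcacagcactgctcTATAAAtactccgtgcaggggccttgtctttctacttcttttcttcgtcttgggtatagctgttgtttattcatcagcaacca
Hist1h1b: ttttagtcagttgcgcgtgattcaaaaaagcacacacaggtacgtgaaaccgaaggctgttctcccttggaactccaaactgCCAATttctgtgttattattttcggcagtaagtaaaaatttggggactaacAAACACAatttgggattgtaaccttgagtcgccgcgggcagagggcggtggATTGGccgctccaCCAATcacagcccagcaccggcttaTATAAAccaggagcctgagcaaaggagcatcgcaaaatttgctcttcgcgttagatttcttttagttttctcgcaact
Hist1h2ab: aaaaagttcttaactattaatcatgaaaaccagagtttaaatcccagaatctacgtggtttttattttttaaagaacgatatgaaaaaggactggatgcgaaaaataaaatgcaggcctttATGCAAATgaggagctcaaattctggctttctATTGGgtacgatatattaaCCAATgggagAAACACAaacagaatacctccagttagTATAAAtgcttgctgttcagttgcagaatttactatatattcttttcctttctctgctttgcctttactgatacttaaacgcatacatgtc

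CCAAT was found in the promoters of all 6 H1 genes, all 17 H2A, all 16 H2B and all 10 H3 genes with a matched promoter, but in 3 of 12 H4 promoters, against 37.9% of the promoters of 27025 genes. TATAAA was in 4 of 6 H1 promoters, 11 of 17 H2A, 8 of 16 H2B, 4 of 10 H3 and 8 of 12 H4 promoters, against 14.2% of all. AAACACA was in 5 of 6 H1 promoters, against 7.14% of all, and Hist1h1a was the H1 gene without it. It was also in 2 H2A promoters, among them that of Hist1h2ab, and in 2 H2B promoters. The octamer motif was in 7 of 17 H2A and 6 of 16 H2B promoters and in no H1, H3 or H4 promoter, against 1.75% of all. These matches describe letters and do not show binding. Promoters were matched for 61 of the 70 genes.

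Hist1h1a, now named H1f1, measured 119, 147 and 173 CPM across the WT LSK libraries against 1037, 856 and 665 CPM across those of T2F3. The lowest T2F3 library was well above the highest WT library. The rise was 5.82-fold (log2 change 2.54 ± 0.38 SE, adjusted p = 0.00417 by edgeR's quasi-likelihood test with Benjamini-Hochberg adjustment, n = 3 per group). It passed in 22 of 23 alternative fits, with adjusted p from 4.763e-09 to 0.0543, and the exception was the fit with the library code as a block.

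Hist1h1b, now named H1f5, measured 164, 126 and 172 CPM across the WT LSK libraries against 1104, 396 and 377 CPM across those of T2F3. Replicate 1 stood far above the other T2F3 libraries, yet the genotypes did not overlap. The rise was 4.05-fold (log2 change 2.02 ± 0.40, edgeR adjusted p = 0.0150). The call was lost without replicate 1 or replicate 2 of WT LSK (adjusted p = 0.0524 and 0.0672), without both T2F3 replicate 1 libraries (log2 difference 1.32, adjusted p = 0.0601) and in the fit blocked by library code (adjusted p = 0.234).

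Hist1h2ab, an H2A gene with 71.5% of its windows shared with other genes, measured 40.6, 55.8 and 84.3 CPM across the WT LSK libraries against 236, 132 and 113 CPM across those of T2F3, again without overlap. The rise was 2.67-fold (log2 change 1.41 ± 0.36, edgeR adjusted p = 0.0426). This call was close to the threshold, passing in 10 of 23 alternative fits, with adjusted p up to 0.306. It was lost without T2F3 LSK replicate 1 (log2 difference 1.03, adjusted p = 0.167), without both T2F3 replicate 1 libraries (1.03, 0.206) and without both WT replicate 1 libraries (1.18, 0.107). Leaving out WT LSK replicate 1, WT LSK replicate 2 or T2F3 LSK replicate 2 ended the call as well (adjusted p = 0.135, 0.122 and 0.0642).

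**Figure D3:**
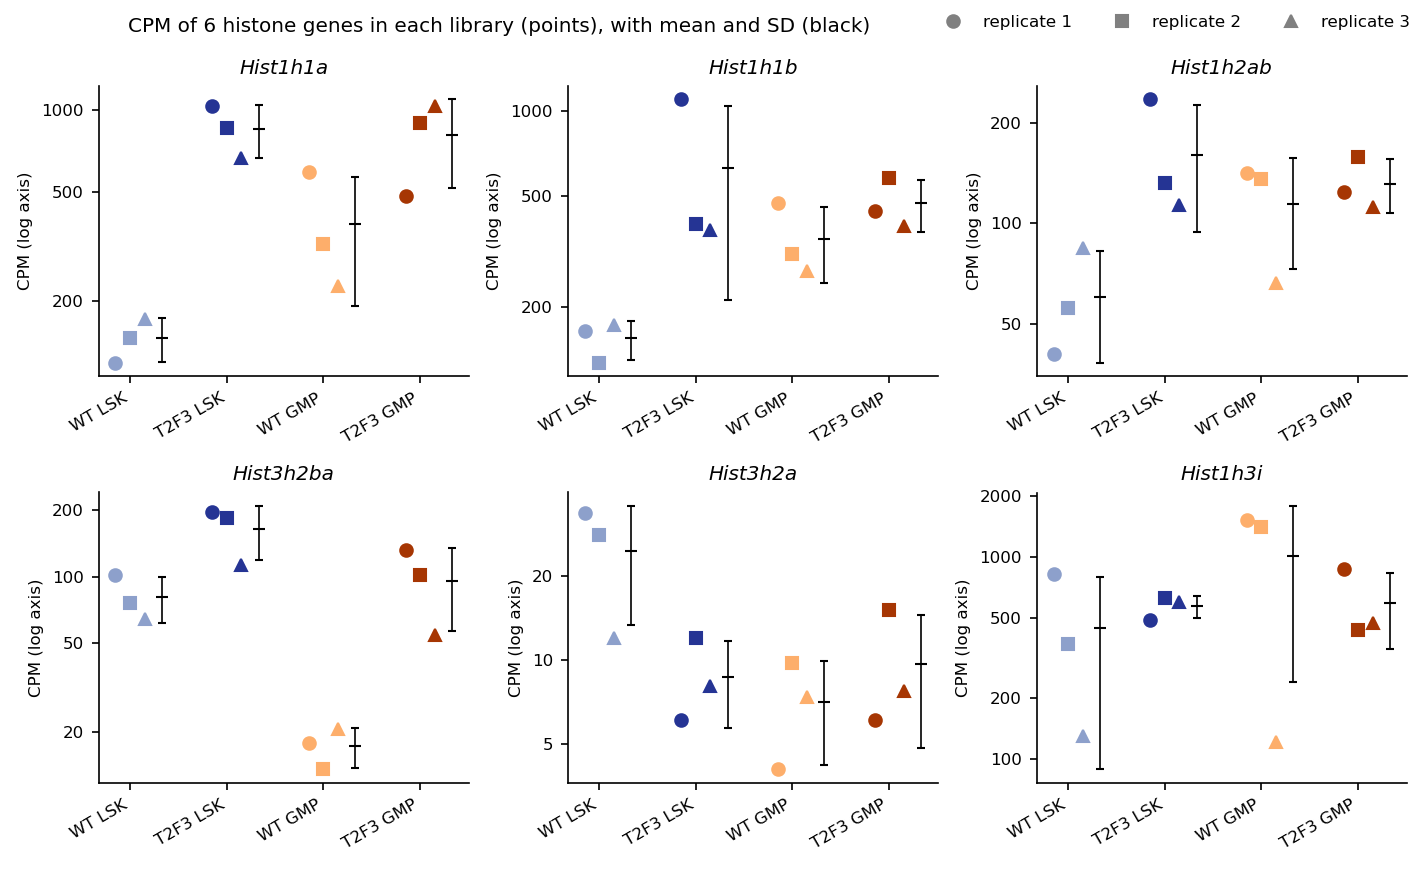
CPM on a log axis of 6 histone genes in each library (coloured points, marker shapes for replicates), with the mean and SD of each group in black. Hist1h1a, Hist1h1b and Hist1h2ab are higher in all 3 T2F3 LSK libraries than in WT LSK, Hist3h2ba is lowest in WT GMP, and Hist1h3i varies more within WT GMP, from 121 to 1517 CPM, than between groups.

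Labels give the libraries 4 codes of unstated meaning, and only 1 code holds LSK libraries of both genotypes. Within that code WT LSK replicate 1 and T2F3 LSK replicate 2 were at 119 and 856 CPM for Hist1h1a, at 164 and 396 CPM for Hist1h1b and at 40.6 and 132 CPM for Hist1h2ab. The direction within the code was the one seen over all libraries, with 1 library per genotype and no test.

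Within the H1 class the genes differed in share. Hist1h1a made up 12.3 to 18.8% of H1 CPM in the WT LSK libraries and 26.8 to 43.5% in the T2F3 LSK libraries. Hist1h1b was at 15.7 to 16.9% in WT and at 20.1 to 28.5% in T2F3. The shares of Hist1h1e and Hist1h1c were lower, at 26.1 to 33.9% and 15.0 to 20.6% in WT against 15.6 to 16.6% and 7.87 to 11.3% in T2F3. Their own levels did not pass the test (Hist1h1e log2 difference 0.45 ± 0.35, Hist1h1c 0.49 ± 0.42, edgeR adjusted p = 0.506 and 0.555). Hist1h1d had a mean of 177 ± 40.04 CPM in WT LSK and of 395 ± 230.01 CPM in T2F3 LSK (SD, n = 3), its libraries did not overlap, and it did not pass either (log2 difference 1.15 ± 0.40, adjusted p = 0.111).

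**Figure D4:**
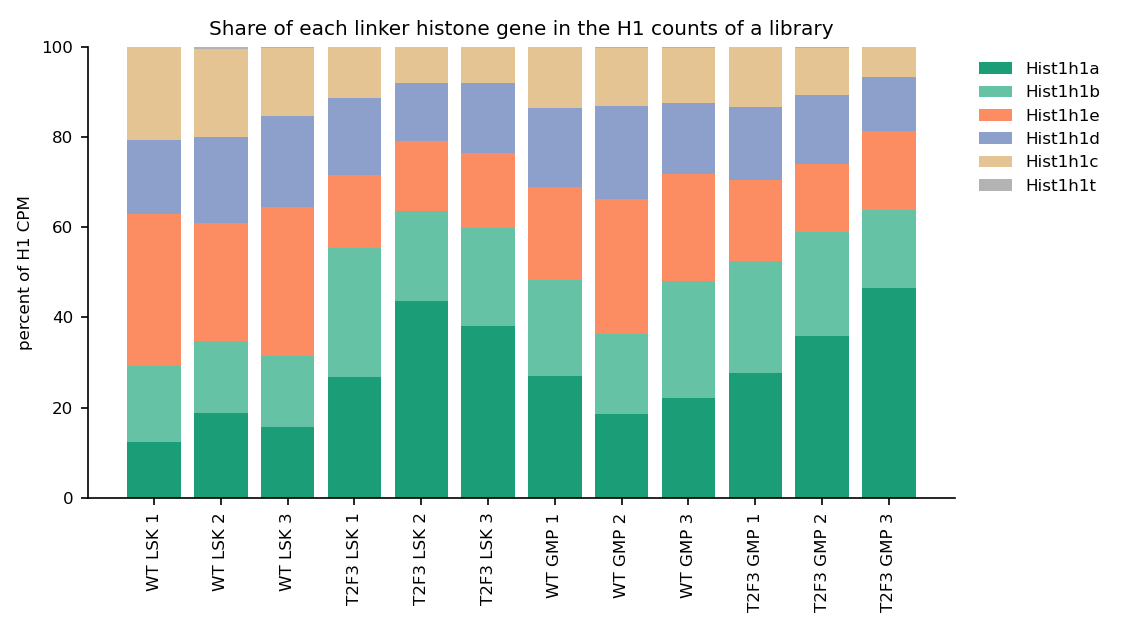
Share of each H1 gene in the summed H1 CPM of a library (stacked bars to 100%). Hist1h1a takes 12.3 to 18.8% in WT LSK and 26.8 to 43.5% in T2F3 LSK, and Hist1h1c and Hist1h1e take less in T2F3 LSK.

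Over the whole family in LSK, 44 members had a positive and 26 a negative log2 difference, with a median of 0.22 against 0.05 over all genes tested. In T2F3 LSK, as given above, 63 of the 70 were highest in replicate 1. The genotypes did not overlap in 11 members that were higher in T2F3, against 14.7% of all genes, and in 1 that was lower, against 13.3%. Among H2B genes the median was 0.44, and 15 of 19 were positive. Hist1h2bf and Hist1h2bg were higher in T2F3 without overlap and did not pass (log2 differences 0.89 ± 0.32 and 0.86 ± 0.27, edgeR adjusted p = 0.129 and 0.0877). Among H2A genes the median was 0.24 and among H3 genes 0.28. Hist1h3d, the H3 gene with the largest difference, measured 108, 124 and 73.6 CPM across the WT LSK libraries against 314, 233 and 314 CPM across those of T2F3 (log2 difference 1.49 ± 0.54, adjusted p = 0.126). It passed in 2 of 23 alternative fits, with adjusted p up to 0.678. These were the fit with only the 6 LSK libraries (adjusted p = 0.0241) and that without WT GMP replicate 3 (adjusted p = 0.0193).

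All 13 H4 genes had a negative log2 difference in LSK, from -0.86 to -0.01 with a median of -0.32, and none passed by edgeR or had an unadjusted p under 0.05. Hist1h4d, the most abundant H4 gene, measured 1741, 709 and 658 CPM across the WT LSK libraries against 1353, 455 and 422 CPM across those of T2F3. In each genotype replicate 1 was well above the others, and the groups overlapped (log2 difference -0.48 ± 0.65, adjusted p = 0.731). The promoter of Hist1h4d, at chr13:23581318-23581617, plus strand, is shown because the gene is the most abundant of its class. It is among the 3 of 12 H4 promoters that hold CCAAT, here on the opposite strand. Its capitals also mark GGTCCG, part of the H4 subtype element. GGTCCG was in 11 of 12 H4 promoters, in 1 of 16 H2B and 1 of 10 H3 promoters and in no H1 or H2A promoter, against 8.39% of all.
Hist1h4d: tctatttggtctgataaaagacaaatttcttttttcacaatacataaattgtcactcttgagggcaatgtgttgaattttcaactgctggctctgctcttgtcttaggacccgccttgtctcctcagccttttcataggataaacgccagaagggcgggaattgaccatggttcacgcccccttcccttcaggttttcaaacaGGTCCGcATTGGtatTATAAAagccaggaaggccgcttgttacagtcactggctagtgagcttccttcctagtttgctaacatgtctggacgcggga

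**Figure D5:**
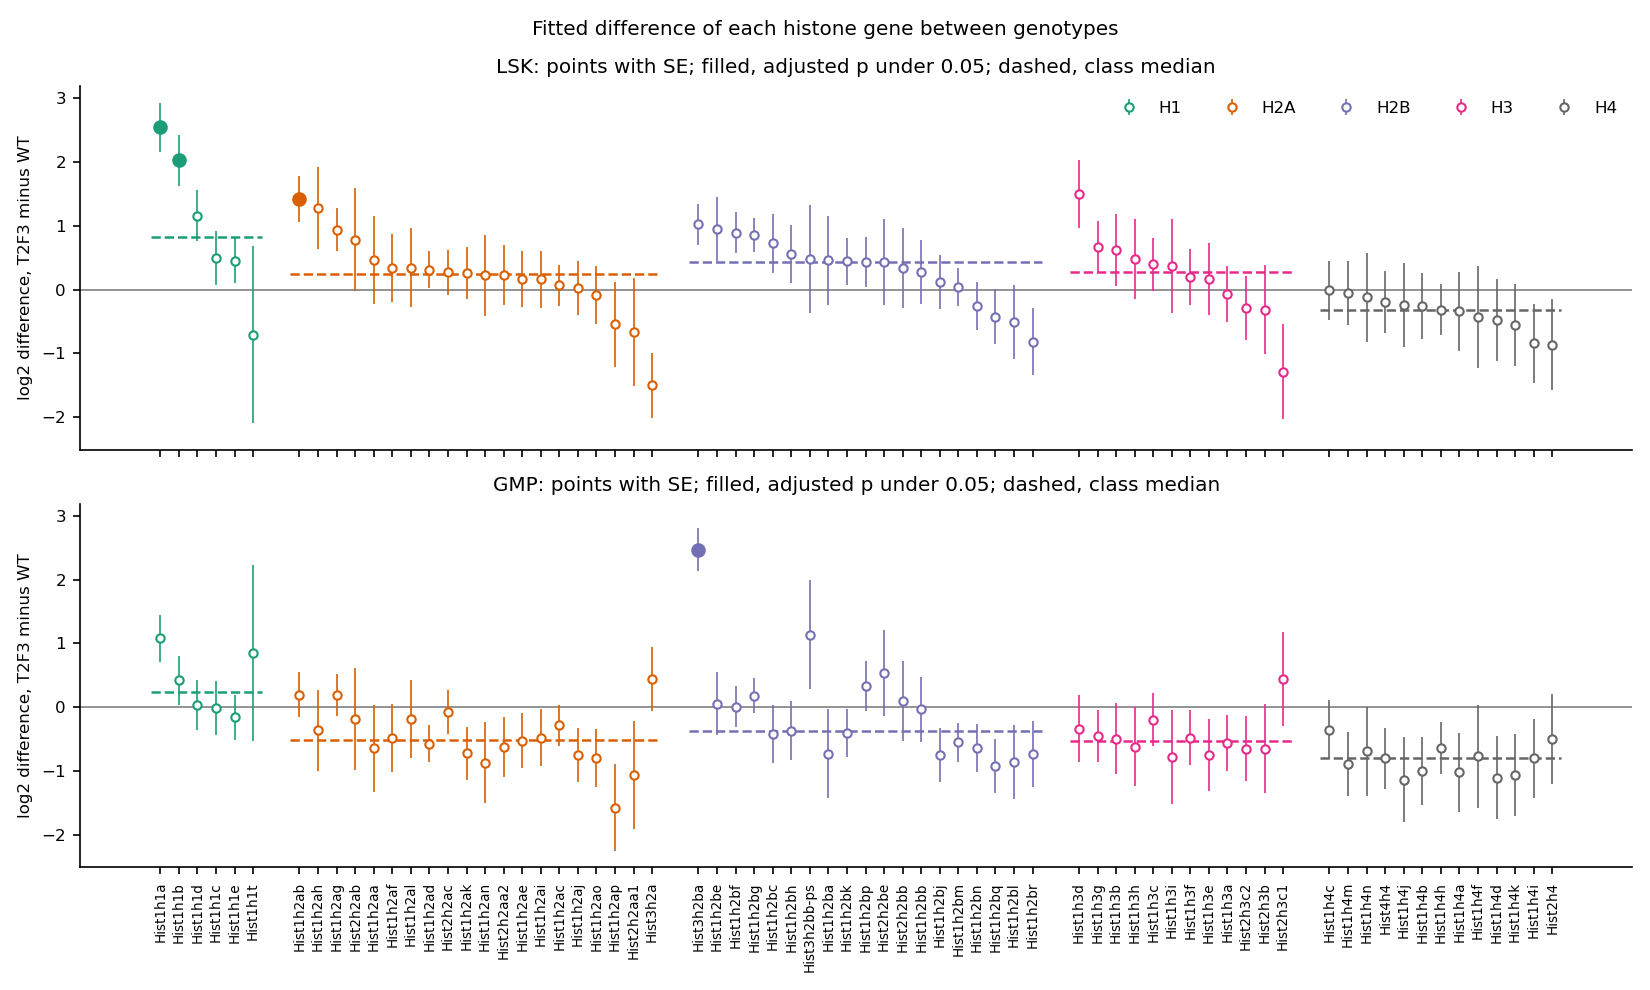
Fitted log2 difference of each histone gene, T2F3 minus WT, in LSK (upper panel) and GMP (lower panel), with its SE. Filled points passed at an adjusted p under 0.05 and dashed lines are class medians. All 13 H4 genes lie below 0 in both panels without passing, and Hist3h2ba stands alone in GMP at 2.47.

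The comparison of T2F3 with WT GMP asks the same of the granulocyte-macrophage progenitors. Of the 70 genes 1 passed, higher in T2F3, against 1.14% of all genes called in either direction, 0.679% called higher and 0.461% lower. At an unadjusted p under 0.05 there were 3, against 13.6% of all genes. The gene that passed was Hist3h2ba, now named H2bu2, an H2B gene of the small Hist3 cluster. Its level was 17.8, 13.5 and 20.5 CPM in WT GMP and 131, 101 and 54.5 CPM in T2F3 GMP. The groups were far apart relative to the WT spread, although the T2F3 libraries differed 2.41-fold among themselves. The rise was 5.53-fold (log2 change 2.47 ± 0.34, edgeR adjusted p = 0.00437, n = 3 per group), and it passed in 23 of 23 alternative fits with adjusted p up to 0.0331. In LSK Hist3h2ba measured 102, 75.9 and 64.7 CPM across the WT libraries against 195, 184 and 112 CPM across those of T2F3, without overlap, and did not pass (log2 difference 1.02 ± 0.32, adjusted p = 0.0840). The difference between the effects in LSK and GMP, -1.45 ± 0.45, did not pass (adjusted p = 0.357). In the 2 codes that hold GMP libraries of both genotypes the WT and T2F3 values were 20.5 and 131 CPM, and 17.8 and 54.5 CPM.

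Hist3h2ba shares its cluster with Hist3h2a, an H2A gene, and with the pseudogene Hist3h2bb-ps. The promoters of Hist3h2ba and Hist3h2a are shown because results below turn on these neighbours. That of Hist3h2ba is at chr11:58948661-58948960, plus strand, and that of Hist3h2a at chr11:58954435-58954734, plus strand, in the same RefSeq build and with the same motifs in capitals. The octamer motif was found in the promoter of Hist3h2a and not in that of Hist3h2ba.
Hist3h2ba: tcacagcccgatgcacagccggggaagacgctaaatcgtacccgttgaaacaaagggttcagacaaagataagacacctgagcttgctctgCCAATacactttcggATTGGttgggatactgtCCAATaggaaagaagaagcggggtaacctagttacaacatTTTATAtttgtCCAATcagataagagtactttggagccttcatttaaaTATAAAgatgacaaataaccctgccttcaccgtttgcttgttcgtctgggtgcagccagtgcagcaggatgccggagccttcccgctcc
Hist3h2a: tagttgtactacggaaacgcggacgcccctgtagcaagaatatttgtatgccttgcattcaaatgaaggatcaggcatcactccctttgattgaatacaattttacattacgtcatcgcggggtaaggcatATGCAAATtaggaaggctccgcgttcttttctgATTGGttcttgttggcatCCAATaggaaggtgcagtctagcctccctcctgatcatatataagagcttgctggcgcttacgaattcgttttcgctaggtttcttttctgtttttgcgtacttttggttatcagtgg

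Hist3h2a measured 4.05, 9.80 and 7.39 CPM across the WT GMP libraries against 6.08, 15.2 and 7.78 CPM across those of T2F3, which overlapped (log2 difference 0.45 ± 0.50, edgeR adjusted p = 0.785). In LSK it had the largest negative difference of the family. It measured 33.7, 28.2 and 12.0 CPM across the WT libraries against 6.08, 12.0 and 8.07 CPM across those of T2F3, with the lowest WT library at the level of the highest T2F3 library (log2 difference -1.50 ± 0.51, edgeR adjusted p = 0.106, DESeq2 adjusted p = 0.0259). Of 23 alternative fits for LSK it passed in 1, that of DESeq2, with adjusted p up to 0.310. Hist3h2a and Trim17 are annotated with the same start in GENCODE vM21, so its reads cannot be told apart from those of that Trim17 transcript.

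Across the family in GMP the median log2 difference was -0.49, against 0.02 over all genes, with 16 members positive and 54 negative. The class medians were 0.23 for H1, -0.50 for H2A, -0.36 for H2B, -0.52 for H3 and -0.80 for H4. The genotypes did not overlap in 4 members that were lower in T2F3 (Hist1h2br, Hist1h2ba, Hist1h4h and Hist1h4k, adjusted p from 0.531 to 0.736), against 9.72% of all genes, and in 1 that was higher, Hist3h2ba, against 12.0%. Class sums overlapped for every class. The H4 sum was 7266, 3952 and 2691 CPM in WT GMP and 4548, 2172 and 1482 CPM in T2F3 GMP (log2 difference -0.80 ± 0.63), and the H1 sum was 2195, 1737 and 1034 CPM against 1759, 2507 and 2235 CPM (0.44 ± 0.35). H1 took 10.6, 9.97 and 12.9% of histone CPM across the WT GMP libraries and 11.4, 23.1 and 25.6% across those of T2F3. T2F3 GMP replicate 1 lay within the WT range, and its small noncoding RNA share was 26.2%, against 13.5 and 12.1% in replicates 2 and 3. The part of that share in the H1 values was not tested. Hist1h1a measured 594, 324 and 228 CPM across the WT GMP libraries against 486, 899 and 1038 CPM across those of T2F3, which overlapped (log2 difference 1.08 ± 0.37, edgeR adjusted p = 0.200, limma-voom adjusted p = 0.0131). Of 23 alternative fits for GMP it passed in 1, that of limma-voom, with adjusted p up to 0.531.

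A test of the difference between the genotype effects in LSK and GMP asks whether they depend on the population. Among the 70 genes 0 passed by edgeR, against 0.0249% of all genes, and 6 had an unadjusted p under 0.05, against 9.47%. DESeq2 and limma-voom also called 0. The 6 were Hist1h1a, Hist1h1b, Hist1h2ab, Hist1h3d, Hist3h2ba and Hist3h2a. Hist3h2ba had the larger difference in GMP, and Hist3h2a was at -1.50 in LSK and 0.45 in GMP. The LSK minus GMP differences were 1.46 ± 0.52 for Hist1h1a, 1.59 ± 0.54 for Hist1h1b, 1.22 ± 0.50 for Hist1h2ab and 1.83 ± 0.75 for Hist1h3d (adjusted p from 0.406 to 0.491 for these 4). The rise of the 3 LSK genes is therefore not shown to be absent from GMP, nor that of Hist3h2ba from LSK.

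The comparison of GMP with LSK in WT mice asks what changes on normal commitment to the granulocyte and macrophage lines. It shares its WT LSK libraries with the LSK genotype comparison and its WT GMP libraries with the GMP one, so the values of these comparisons are linked. Of the 70 genes 2 were higher and 2 lower in GMP, against 13.1% of all genes called in either direction, 5.72% higher and 7.37% lower. At an unadjusted p under 0.05 there were 13, against 28.3% of all genes. Hist1h1a rose 2.61-fold from LSK to GMP (log2 change 1.38 ± 0.37, edgeR adjusted p = 0.0276), from 119 to 173 CPM in the LSK libraries to 228 to 594 CPM in the GMP libraries. With the animal as a block, which the same replicate numbers of a genotype were taken to mark, it did not pass (adjusted p = 0.0721). Without both WT replicate 1 libraries its log2 difference was 0.77 (adjusted p = 0.256). Hist1h2bf was at 89.2, 99.6 and 95.4 CPM in LSK and at 242, 278 and 102 CPM in GMP, a 2.19-fold rise (log2 change 1.13 ± 0.33, adjusted p = 0.0377) with 1 GMP library close to LSK. It passed in 14 of 24 alternative fits, and without both WT replicate 1 libraries its adjusted p was 0.202. With the animal as a block 4 histone genes were higher and 2 lower. Those lower were the 2 described next, and of those higher Hist1h2bf was called in both fits.

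The genes that fell from LSK to GMP in WT mice were the Hist3 neighbours. Hist3h2ba was 4.67-fold lower in GMP (log2 change -2.22 ± 0.33, edgeR adjusted p = 0.00126), and it passed in 24 of 24 alternative fits with adjusted p up to 0.0127. Hist3h2a was 3.47-fold lower (log2 change -1.80 ± 0.51, adjusted p = 0.0361), and it passed in 15 of 24, with an adjusted p of 0.198 without both WT replicate 1 libraries. Within the 2 codes that hold WT libraries of both populations, Hist3h2ba was at 75.9 and 20.5 CPM, and at 64.7 and 17.8 CPM, in LSK and GMP.

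Most other members were higher in WT GMP without passing. In all 61 had a positive and 9 a negative log2 difference, with a median of 0.54 against 0.01 over all genes. Groups did not overlap in 7 members higher in GMP, against 15.2% of all genes, and in 2 lower, against 16.3%. The number called depended on WT GMP replicate 3, in which 52 members were lowest in the group. Without it 13 members passed, 12 of them higher in GMP, and among them Hist1h3d (log2 difference 2.04, edgeR adjusted p = 0.00231), Hist1h3b (1.62, 0.0162), Hist1h2bh (1.52, 0.00792) and Hist1h2ak (1.18, 0.0183). Without WT LSK replicate 1 or 2, or WT GMP replicate 1, 1 passed, and without WT LSK replicate 3 or WT GMP replicate 2, 2 passed.

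In T2F3 mice no histone gene passed between GMP and LSK. Of the 70 genes 0 passed by edgeR, against 0.972% of all genes (0.274% higher and 0.698% lower), and 1 had an unadjusted p under 0.05, against 7.99%. DESeq2 and limma-voom called 0. That 1 was Hist3h2ba (log2 difference -0.78 ± 0.32, adjusted p = 0.478). The groups overlapped in all 70 members, against 6.35% of all genes that were higher and 8.97% that were lower without overlap. The median log2 difference was -0.06, with 29 members positive and 41 negative. The sum of all members was 12146 ± 5715 CPM in T2F3 LSK and 11672 ± 3427 CPM in T2F3 GMP (SD, n = 3), a spread that leaves room for differences of either sign. Hist1h1a had its lowest mean in WT LSK (147 ± 26.8 CPM), followed by WT GMP (382 ± 189.5 CPM), T2F3 GMP (808 ± 287 CPM) and T2F3 LSK (853 ± 186 CPM). The libraries of T2F3 GMP overlapped both those of T2F3 LSK and those of WT GMP.

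Other lists of the histone pathway are read against the 5.2% of all genes called in LSK, 2.76% higher and 2.44% lower. Of 22 genes for the transcription and processing of histone mRNA, 1 was lower in T2F3 LSK, a share near that background. It was Zcchc11, a terminal uridylyltransferase of small RNA and mRNA, at 140.1, 119 and 91.7 CPM in WT LSK against 57.1, 68.3 and 68.7 CPM in T2F3 (log2 change -0.85, edgeR adjusted p = 0.0488), and it passed in 7 of 23 alternative fits. Slbp, the stem-loop binding protein, measured 39.5, 60.8 and 48.6 CPM across the WT LSK libraries against 66.8, 67.2 and 82.1 CPM across those of T2F3, without overlap, and did not pass (log2 difference 0.54, adjusted p = 0.182). Npat, the coactivator of histone genes at histone locus bodies, and Casp8ap2, another component of these bodies, did not pass (0.24 and 0.72, adjusted p = 0.639 and 0.0904). In GMP none of the 22 passed by edgeR and 2 had an unadjusted p under 0.05, against 13.6% of all genes.

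Histone chaperones, which carry new histones to DNA, had 1 of 19 members higher in T2F3 LSK. This was Nap1l1, at 85.5, 157 and 109.6 CPM in WT LSK against 197, 226.5 and 269 CPM in T2F3 (log2 change 0.98, edgeR adjusted p = 0.0267). The list of 47 DNA replication genes had 41 positive log2 differences in LSK and a median of 0.37, against 0.05 over all genes. Of 25 mitosis genes 3 were higher, the checkpoint kinase Bub1b (0.93, adjusted p = 0.0344), the kinesin Kif20a (0.73, 0.0352) and the spindle factor Tpx2 (0.72, 0.0491), with 22 positive members and a median of 0.50. Of 23 alternative fits, Bub1b passed in 14, Kif20a in 10 and Tpx2 in 3, and Nap1l1 in 15. In GMP 0 members of these lists passed by edgeR. There 2 of 19, 6 of 47 and 2 of 25 had an unadjusted p under 0.05, against 13.6% of all genes. Over these lists, that for histone mRNA and that of replication-independent histones, DESeq2 called 2 genes in GMP and limma-voom 4. In WT mice 7 of 47 DNA replication genes were higher in GMP than in LSK, against 5.72% of all genes. Among them were Mcm5 of the replicative helicase (1.03, edgeR adjusted p = 0.0143) and E2f1 (1.27, 0.0121). The H3-H4 chaperone Asf1b was also higher (1.13, adjusted p = 0.0141). Leaving out 1 library at a time gave 0 to 9 replication genes called higher. Of 24 alternative fits, Mcm5 passed in 19, E2f1 in 20 and Asf1b in 21.

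The replication genes differed less between replicates than the histone genes did. Their summed level was 6054 to 6551 CPM in WT LSK, 6819 to 7630 CPM in T2F3 LSK, 7870 to 9952 CPM in WT GMP and 7207 to 7609 CPM in T2F3 GMP. In T2F3 LSK, where the histone sum was 18740, 9078 and 8621 CPM in replicates 1, 2 and 3, the replication sum was 7519, 6819 and 7630 CPM. The replication-independent histones, which are made outside S phase as well, had 0 of 11 members called by edgeR in LSK and 0 in GMP. At an unadjusted p under 0.05 the list had 3 members in LSK, against 21.5% of all genes, and 1 in GMP, against 13.6%. Of the 11, DESeq2 called 2 lower in LSK and limma-voom 1, and in GMP both called 0. In WT mice H3f3b, a gene of the H3 variant of transcribed chromatin, and the linker variant H1fx were lower in GMP (log2 changes -0.59 and -1.72, edgeR adjusted p = 0.0474 and 0.0142), passing in 8 and 21 of 24 alternative fits.

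Markers of other cell types also changed with the genotype in LSK. Summed over 13 erythroid markers, the level was 572 to 946 CPM in WT LSK and 53.1 to 120.0 CPM in T2F3 LSK. Of 12 tested members 9 were called lower, against 2.44% of all genes. The sum of 10 monocyte and dendritic cell markers was 192 to 349 CPM in WT LSK, with 6 called higher in T2F3, against 2.76% of all genes. It was 5931, 6139 and 447 CPM in T2F3 LSK replicates 1, 2 and 3. For 11 B cell markers the sum was 2634, 340 and 486 CPM in WT LSK replicates 1, 2 and 3, and 147 to 376 CPM in T2F3 LSK. Among the LSK markers, Kit, Hlf and Meis1 were lower. The part of the cell make-up in the histone levels was not tested.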

How the data were processed

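Total RNA of sorted marrow cells was depleted of ribosomal RNA and sequenced on an Ion Torrent platform, per the labels' protocols. The deposited table holds the authors' raw read counts per gene, with no normalization. The submitters' processing notes name cutadapt 1.2rc2, TopHat, TopHat2, BWA 0.5.9, Picard, HTSeq and the mm9 build. Their order, the treatment of reads that fit several copies and the strand setting are not given in those notes or labels, which leaves overlapping genes on opposite strands impossible to separate.

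Groups and replicate numbers come from the sample titles. The histone genes and the other gene lists were chosen with earlier results of these data known. Counts of 21497 entries were filtered with filterByExpr (minimum count 10), which left 16042 genes. They were scaled by TMM and fitted with edgeR 4.0.16 in R 4.3.3 by the quasi-likelihood test, with 1 mean per group over all 12 libraries (8 residual degrees of freedom). Benjamini-Hochberg adjustment ran over all genes tested, and an adjusted p under 0.05 was called. Every adjusted p is edgeR's unless DESeq2 1.42.0 or limma 3.58.1 is named. Class sums are CPM per library, and their difference of mean log2 CPM carries an SE and no test. The script was tested on simulated data. Promoters are RefSeq's, build GRCm38.p6, and coding sequences GENCODE's vM21, both of a later build than the counts and used by gene name or identifier, with 19939 of the table's identifiers matched.

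Genes named are, among the histone genes, the 3 most abundant of each class, those called, and those with the largest difference in each direction, and in each other list up to 4 per comparison with the smallest p and a mean of at least 1 CPM, with Npat, Slbp and Casp8ap2 throughout. Other genes named were chosen after their values were seen. Some genes of the other lists are not reported here. Same-numbered LSK and GMP libraries of a genotype deviated together (r from 0.118 to 0.145 in WT and from 0.295 to 0.433 in T2F3), so the number was read as the animal in an alternative fit. No pair of replicates agreed within sampling noise. Alternatives were other scalings, filters and tests, blocks for the replicate number, the animal and the library code, and leaving out libraries. A share of counts scaled by TMM was added after seeing the data.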

Additional observations from a re-analysis of the deposited data

How the results depend on the processing

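Counts of genes called depended on the test and on single libraries, while no value changed sign past its test. In LSK, T2F3 against WT, 834 genes were called, and this became 1919 with DESeq2, 1339 with limma-voom, 474 with only the 6 libraries compared, 18 with the library code as a block and 136 without both T2F3 number 1 libraries. The 3 histone genes became 0 with the code block and 1 without both T2F3 number 1 libraries. The 6 genes called in the other lists became 16 with DESeq2, 14 with limma-voom, 1 with 6 libraries, 0 with the code block, 1 without both WT and 0 without both T2F3 number 1 libraries. In GMP, T2F3 against WT, 183 genes became 789 with DESeq2, 832 with limma-voom, 39 with the code block and 60 without both T2F3 number 1 libraries. The 1 histone gene became 2 with limma-voom, and the other lists went from 0 to 2 with DESeq2 and 4 with limma-voom. The 4 genes whose genotype effects differed became 7 with a filter of 5 CPM in 3 libraries, 190 with DESeq2, 23 with limma-voom, 0 with the code block, 1 without both WT and 0 without both T2F3 number 1 libraries.

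In WT, GMP against LSK, 2100 genes became 3225 with DESeq2, 3186 with limma-voom, 1188 with 6 libraries, 974 with the code block and 1296 without both WT number 1 libraries. The 4 histone genes became 8, 10, 2, 1 and 1 in the same order, and the 14 of the other lists became 28 with limma-voom, 5 with 6 libraries, 3 with the code block and 3 without both WT number 1 libraries. In T2F3, GMP against LSK, 156 genes became 522 with DESeq2, 561 with limma-voom, 0 with the code block, and 413 without both WT and 11 without both T2F3 number 1 libraries. Without both T2F3 number 1 libraries the difference between the H1 sum's genotype effects moved from 0.89 to 0.39 on the log2 scale, and its GMP minus LSK difference in T2F3 from -0.14 to 0.35. Without the most abundant gene of each class the histone share moved from 0.963 to 0.755% in WT LSK and from 1.19 to 0.905% in T2F3 GMP, since fewer genes were summed. The other causes were not tested.

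Leaving out 1 library at a time gave 229 to 1094 genes, 1 to 5 histone genes and 0 to 5 genes of the other lists in LSK, T2F3 against WT. The histone count was 1 when either WT LSK replicate 1 or replicate 2 was left out, and 5 when WT GMP replicate 3 was. It gave 55 to 250 genes and 0 to 1 of the other lists in GMP, and 0 to 10 genes for the difference of effects. For GMP against LSK it gave 1234 to 2090 genes, 1 to 13 histone genes and 5 to 15 of the other lists in WT, and 47 to 256 genes in T2F3.

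The replicate block by animal changed the 4 genes of the difference of effects to 0. With the replicate number as a block across genotypes, the genes called in the other lists in LSK became 10. The histone genes called there were then 2 higher and 1 lower, against 3 higher and 0 lower, and Hist1h2ab was not among them (adjusted p = 0.0651). Deviations of same-numbered libraries of the genotypes correlated at r from -0.012 to 0.190, and those of differently numbered ones at -0.184 to 0.201. The number 1 libraries of both genotypes did share a trait, since replicate 1 stood apart in all 4 groups, as given above.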

Other observations

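H2afx, which encodes the H2A variant phosphorylated at DNA breaks and is counted among the replication-independent histones here, varied widely within the WT groups. Its level was 1593, 799 and 509 CPM in WT LSK replicates 1, 2 and 3, and 2821, 3419 and 564 CPM in those of WT GMP. The T2F3 libraries ran from 929 to 1623 CPM in LSK and from 935 to 1919 CPM in GMP. As with Hist1h3i, WT GMP replicate 3 was far below the other WT GMP libraries.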
